A study of Mus musculus with 4 samples.

Results

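The genes described here encode 9 regulators, linkers and building blocks of the actin cytoskeleton in mouse embryonic stem (ES) cells: Enah, Vasp and Evl, Cobl and Cobll1, Macf1 and Dst, and the cytoplasmic actins Actb and Actg1. They were picked from the 21900 protein-coding genes of the RefSeq table with their peak counts already known, as long genes dense in peaks (Enah, Cobl, Macf1) beside their paralogues and the short actin genes. A peak belonged to a gene if its midpoint lay in the gene body, and 617 of the 59563 deposited peaks did so for these 9 genes. The counts below are therefore a description of the choice and carry no test.

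The material was the WT26 line, feeder-independent male ES cells of the C57BL/6x129sV background, grown with leukemia inhibitory factor. RNA was crosslinked to protein with ultraviolet light, and FLASH, a form of CLIP-seq, recovered the RNA fragments held by the antibody. There were 2 samples for DHX9, an RNA helicase, and 2 control samples in which rabbit IgG took the place of the DHX9 antibody; each pair is labelled as replicates A and B, and the design calls them biological replicates. Nothing in the list is given per pulldown or per replicate: it has 1 set of peaks, with position and strand and an empty score field, so that sequencing depth, peak height and the spread between replicates are unknown. How far the IgG samples entered the calling is not given in the sources used here, and no level of RNA is in the list, so that more binding and more RNA of a gene cannot be told apart.

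DHX9 unwinds RNA duplexes and associates with nascent transcripts and with structured RNA such as inverted repeats. Actin filaments grow at their barbed ends. Ena/VASP proteins stay at these ends and speed elongation, nucleators such as Cobl start new filaments through actin-binding WH2 motifs, and the very large spectraplakins Macf1 and Dst tie actin filaments to microtubules. Actb and Actg1 encode the subunits themselves and are used as housekeeping genes in most cells.

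The sequence tables reach into 3 peaks of these genes, and the reached bases are shown because they are the RNA under the peaks themselves. Sequences are from RefSeq, build GRCm38.p6, written 5′ to 3′ on the minus strand, on which all 3 genes are read. In Enah and Cobl a peak began just downstream of the annotated start, and its first bases, in capitals throughout, were as follows.

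Enah, chr1:182019931-182019943: CCGGTTCCTCACG

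Cobl, chr11:12464911-12464936: GCACCTTGCTCCCGCGCCCGGGGTAG

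In Macf1 a peak of 131 bases (chr4:123616458-123616588) ran antisense to the Mir6398 hairpin and shared 64 bases with it. Capitals mark the 21 bases opposite the mature miRNA.

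Macf1, chr4:123616458-123616521: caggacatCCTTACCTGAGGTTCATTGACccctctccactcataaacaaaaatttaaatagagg

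The Macf1 peak lay on the Macf1 strand, and the hairpin is annotated on the plus strand. The peak and the miRNA are thus on opposite strands.

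The Enah peak at the start was 570 bases wide and began 37 bases downstream of the start site. The Cobl peak was 261 bases wide and began 24 bases downstream. These were the only annotated starts, of 11 listed for 8 of the members, whose 300-base window (250 bases before to 50 after the start) met a peak on the gene's strand. Among the 5208 starts of protein-coding genes with a peak, 7.57% met one, and among all 21263 starts of protein-coding genes 1.88%. The 11 starts include those of Cobll1 and Actg1, which held no peak.

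The 100 bases before selected starts are shown on the strand of the gene, minus except for Dst, with each CG dinucleotide in capitals, to set starts with a peak in their window beside internal starts, starts that peaks follow at a distance and starts of genes without a peak.

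Enah, chr1:182019981-182020080: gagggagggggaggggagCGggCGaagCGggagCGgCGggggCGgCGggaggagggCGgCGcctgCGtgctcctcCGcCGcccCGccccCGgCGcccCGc

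Cobl, chr11:12464961-12465060: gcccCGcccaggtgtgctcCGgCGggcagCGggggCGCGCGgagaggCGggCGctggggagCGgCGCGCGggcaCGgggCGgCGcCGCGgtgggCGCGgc

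Cobl internal start, chr11:12412141-12412240: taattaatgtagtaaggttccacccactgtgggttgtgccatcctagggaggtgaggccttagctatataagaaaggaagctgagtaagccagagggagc

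Macf1, chr4:123684361-123684460: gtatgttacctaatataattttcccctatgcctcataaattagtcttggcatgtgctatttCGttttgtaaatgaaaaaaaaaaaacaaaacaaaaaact

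Dst, chr1:34011495-34011594, plus strand: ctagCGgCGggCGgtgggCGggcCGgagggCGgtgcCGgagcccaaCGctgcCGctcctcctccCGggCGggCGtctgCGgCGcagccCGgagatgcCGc

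Cobll1, chr2:65238792-65238891: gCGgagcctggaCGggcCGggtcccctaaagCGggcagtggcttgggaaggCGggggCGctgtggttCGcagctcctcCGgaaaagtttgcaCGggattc

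Actg1, chr11:120348496-120348595: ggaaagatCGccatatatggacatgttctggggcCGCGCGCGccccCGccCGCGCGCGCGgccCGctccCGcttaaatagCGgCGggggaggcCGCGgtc

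Enah and the upstream Cobl start had 16 and 20 CG dinucleotides in these 100 bases and 87% and 89% G or C. The first Dst start, itself 104 kb into the gene body and with its next peak 13.5 kb downstream, also had 16, and the first Evl start had 10 with its next peak 8.22 kb away. Vasp had 9 and its next peak was 1.47 kb away. Actg1 and Cobll1, which held no peak, had 17 and 9. CG-rich starts thus stood at genes with and without peaks, and with near and distant first peaks. The second starts of Cobl, Evl and Dst had 0, 2 and 2 CG dinucleotides and the Macf1 start 1, against a median of 3 over all 32851 listed starts. The table lists no start for Actb.

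Of the 9 genes 7 held at least 1 peak, where 22.8% of all protein-coding genes did. Enah held 211 peaks, Macf1 171 and Cobl 168, together 550 or 89.1% of the peaks in these genes. These 3 genes span 698 kb in all. The other 6 span 708 kb and held 67 peaks. Genes with at least 100 peaks made up 0.192% of protein-coding genes and 1.24% of those of 100 kb and over.

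**Figure D1:**
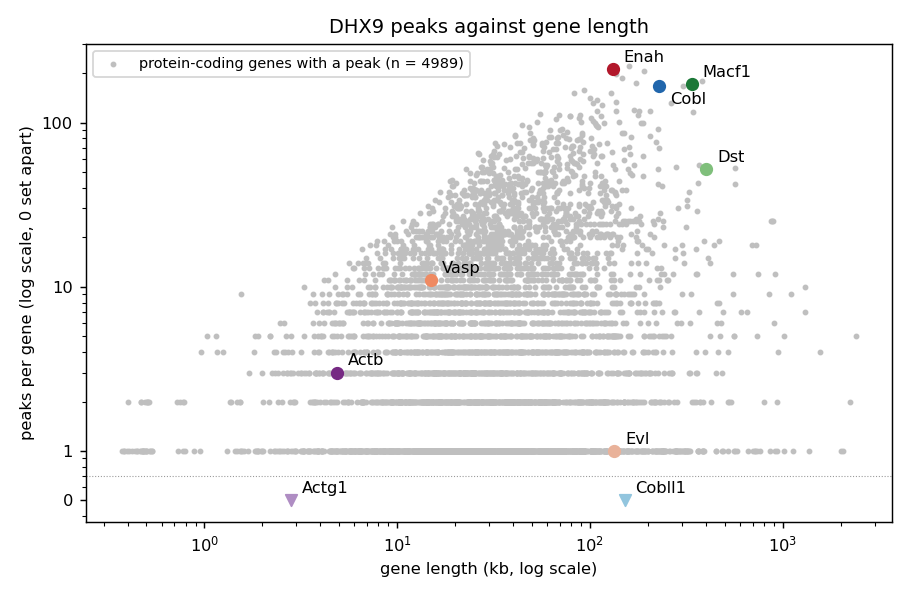
Peaks per gene (vertical, log scale with 0 set apart) against gene length in kb (horizontal, log scale), with the 9 genes coloured and every protein-coding gene with a peak in grey. Enah, Macf1 and Cobl lie near the upper edge, while Evl, of the same length as Enah, held 1 peak.

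Enah encodes Mena, the Ena/VASP protein named for its Drosophila relative Enabled. The gene spans 131 kb of chromosome 1 (181896384 to 182027556, mm10) and its 211 peaks were all on the minus strand, the annotated strand (100%, 95% Wilson interval 98.2 to 100%). It had 1.61 peaks per kb, and peaks covered 58525 bases or 44.6% of the gene. No other of the 743 protein-coding genes of 100 kb and over with a peak was covered to this extent; their median was 0.441% (quartiles 0.129 and 1.96%). In peaks per kb Enah ranked lower, 89 of the 2330 protein-coding genes that span 10 kb or more and hold 5 peaks or more.

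The cover came from wide as well as from many peaks. Enah peaks had a median width of 259 bases, against 196 for the whole list, and 68.2% were at least as wide as that median. The widest, of 793 bases, lay 16.6 kb into the gene (chr1:182010594-182011386). Midpoints were a median of 425 bases apart.

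Peaks ran from near the annotated start of Enah to near its 3′ end. The gene body of the table begins 7.58 kb before the annotated start, no peak lay in that stretch, and the first midpoint came 322 bases after the start. The last midpoint was 0.441 kb from the 3′ end of the gene. Each 10% bin of the gene body held 10 to 31 peaks, the first and last 20% held 9.95% (6.60 to 14.7%) and 19.9% (15.1 to 25.8%), and the longest stretch without a midpoint was the first 7.90 kb of the gene body. Within 50 kb beyond the 3′ end there were 3 more peaks on the same strand, the nearest 0.124 kb past the end, and upstream there was none. These intervals, like all below, cover counting error only and treat peaks in runs as independent, which makes them too narrow.

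**Figure D2:**
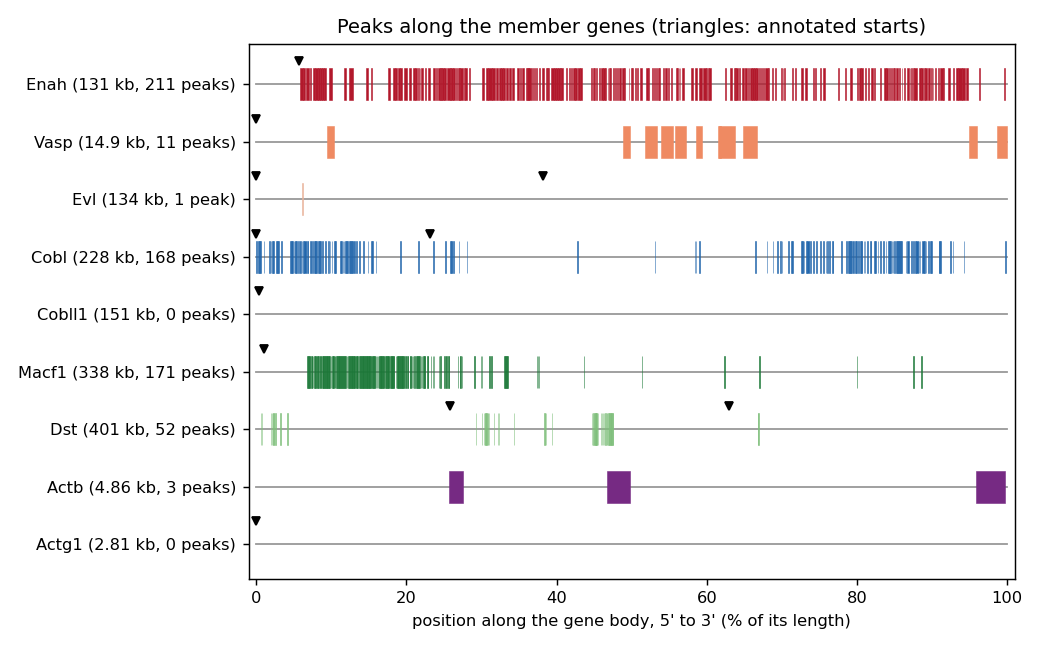
Peaks along each gene body from its 5′ end (0%) to its 3′ end (100%), drawn to scale as blocks of the peak's width, with annotated starts as triangles. Enah has peaks from near its start to near its 3′ end, which cover 44.6% of its bases. Cobl has peaks at both ends, Macf1 in its first part, and Dst in separate short runs.

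Vasp, the paralogue whose product was first found as a phosphoprotein of platelets, is a short gene of 14.9 kb on chromosome 7 (19256929 to 19271854). It held 11 peaks, all on its minus strand. Per kb this was 0.737, within 1% of Cobl and below Enah by a factor of 2.18. Of protein-coding genes of 10 to 20 kb, 24.8% held a peak and 6.60% at least 10. Most Vasp peaks lay in the second part of the gene: 1 was 1.47 kb from the start, 8 followed each other between 7.36 and 9.82 kb, and 2 were near the 3′ end at 14.3 and 14.8 kb. They covered 13.8% of the gene and had a median width of 205 bases.

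Evl, the third Ena/VASP gene, had a single peak in 134 kb of chromosome 12 (chr12:108562864-108563007, 144 bases). It was on the annotated plus strand, 8.25 kb into the gene, between the 2 annotated starts. Enah and Evl are thus of nearly the same length, 131 and 134 kb, and held 211 peaks and 1 peak. The miRNA gene Mir342 inside Evl held none.

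Cobl, the actin nucleator cordon-bleu, spans 228 kb of chromosome 11 (12236676 to 12465022). Its 168 peaks were all on the annotated minus strand (97.8 to 100%), with 0.736 per kb and a median width of 196 bases, the same as for the whole list. They covered 15.7% of the gene, rank 27 of the 743 long genes.

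The Cobl peaks fell into 2 groups at either end of the gene. Runs were told apart wherever midpoints were more than 10 kb apart, a distance set after the positions were seen. The first run held 78 peaks from 0.216 to 64.1 kb, the second large run 84 peaks from 152 to 215 kb, and the other 6 peaks were scattered. Between the last peak of the first run and the next peak lay 33.6 kb with no midpoint. Inside the runs there were 1.22 and 1.32 peaks per kb, above the whole-gene value, as runs leave out the stretches without peaks by definition.

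The first 20% of Cobl held 41.1% of its peaks (33.9 to 48.6%) and the last 20% held 29.2% (22.8 to 36.4%). In the 1470 protein-coding genes that span 20 kb or more and had 5 or more peaks on the annotated strand, the medians were 22.2% (quartiles 5.56 and 41.7%) and 4.94% (0 and 18.4%). The internal start, 52.9 kb into the gene, fell inside the first run: 70 peaks lay before it and 98 after it, with 2 in the 10 kb before and 7 in the 10 kb after. Of the 168 peaks 4 lay in Gm12002, a long noncoding RNA gene annotated on the plus strand, whereas the peaks were on the minus strand.

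Cobll1, the Cobl-like paralogue, held no peak in 151 kb of chromosome 2 (65088339 to 65239398), and there was none within 50 kb on either side. With no peak height or depth in the list, this says only that no peak was called there. Of the protein-coding genes of 100 kb and over, 30.6% held a peak.

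**Figure D3:**
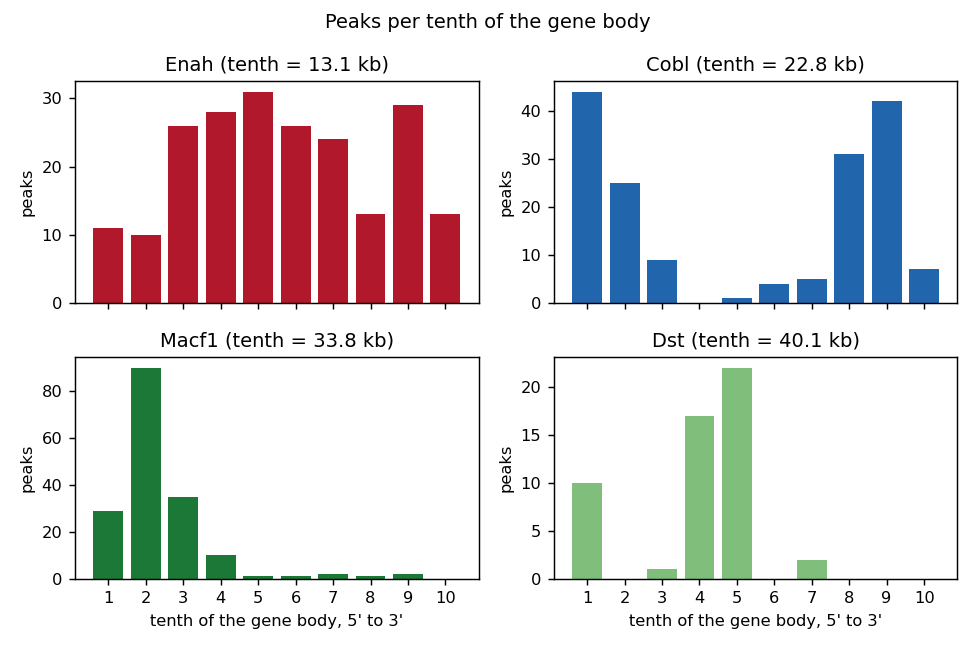
Peaks in each 10% bin of the gene body, numbered from the 5′ end, for Enah, Cobl, Macf1 and Dst; each panel has its own vertical scale. Enah bins hold 10 to 31 peaks, while Macf1 has 90 of its 171 in the second bin.

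Macf1 encodes the spectraplakin also called ACF7, which crosslinks actin filaments and microtubules. It covers 338 kb of chromosome 4 (123349633 to 123687802), and its 171 peaks were all on the annotated minus strand (97.8 to 100%). Over the whole gene this was 0.506 per kb, with 12.1% of the bases covered and a median peak width of 216 bases.

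In Macf1 161 of the 171 peaks (94.2%) stood in 1 run from 23.2 to 113 kb, and the first peak came 19.7 kb after the annotated start. In this run there were 1.79 peaks per kb, slightly more than the 1.72 per kb of the Enah run. Runs are cut from the peak positions and leave out empty stretches, which raises the Macf1 value. Over the whole genes it was 0.506 in Macf1 and 1.61 in Enah. The first 20% of the gene held 69.6% (62.3 to 76.0%) and the last 20% held 1.17% (0.321 to 4.16%). Of the run, 6 peaks lay in the pseudogene Gm35241, which sits inside Macf1. Past the run, 10 peaks were spread over the remaining length, and the last lay 38.5 kb before the 3′ end. The protein-coding gene D830031N03Rik inside Macf1 held no peak.

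Dst encodes dystonin (BPAG1), the other mammalian spectraplakin, known for its part in linking keratin filaments to hemidesmosomes and in sensory neurons. It is the longest of the 9 genes, 401 kb of chromosome 1 (33907888 to 34308662), and held 52 peaks, all on the annotated plus strand (93.1 to 100%). At 0.130 per kb it had fewer peaks per kb than Macf1 by a factor of 3.90. Of the protein-coding genes of 100 kb and over, 2.76% held at least 50 peaks. Peaks covered 2.86% of Dst and had a median width of 197 bases.

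The Dst peaks stood in separate runs. The first held 10 peaks from 2.71 to 16.7 kb, before the first start in the table at 104 kb. The next held 14 peaks from 117 to 138 kb, and the densest 22 peaks from 179 to 190 kb, or 1.99 per kb. Of the other 6, 4 lay between 154 and 158 kb and 2 near 268 kb. Both of the last were also inside Gm26788, a long noncoding RNA gene with no strand in the table. The last 133 kb of the gene held no peak. The second start in the table, at 252 kb, had no peak within 10 kb on either side.

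The first 20% of Dst held 19.2% of its peaks (10.8 to 31.9%), below the median of 22.2% over the 1470 genes above, and its median peak stood at 38.5% of the gene length. Before the middle of the gene lay 165 of 171 peaks in Macf1 (96.5%) and 50 of 52 in Dst (96.2%), against a median of 64.4% (quartiles 40 and 84.6%) over those genes. In Enah the numbers before and after the middle were 106 and 105, and in Cobl 79 and 89.

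Actb, the β-actin gene, is 4.86 kb long (chromosome 5, 142903115 to 142907976) and held 3 peaks. They lay at chr5:142906639-142906728, chr5:142905558-142905707 and chr5:142903130-142903319, or 1.29, 2.34 and 4.75 kb into the gene read along the strand of the peaks, the minus strand. Their widths were 90, 150 and 190 bases, all below the median of the list. Among protein-coding genes under 5 kb, 5.05% held a peak and 2.14% at least 3. Per kb Actb had 0.617, which is more than Macf1 (0.506) and less than Vasp and Cobl, and the peaks covered 8.84% of it. The last of the 3 lay also in Gm38733, a long noncoding RNA gene annotated on the plus strand; counting only peaks in no other gene, Actb had 2, or 0.411 per kb, and Macf1 165, or 0.488 per kb, so that their order turned.

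Actg1, the γ-actin gene, is 2.81 kb long (chromosome 11, 120345687 to 120348495) and held none. The actin pseudogenes Actb-ps1 and Actg-ps1 and the related gene Actbl2 held none either. Among protein-coding genes under 5 kb 5.05% held a peak, so that most genes as short as Actg1 and Actbl2 held none. Actin genes have near-identical copies, and how reads that match several places were treated is not given in the sources used here. The part of this in the actin counts was not tested.

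The stretch beyond Actb held more peaks than the gene, but it is far longer than the 4.86 kb of Actb. The counts are therefore not a comparison per kb. In the 50 kb past its 3′ end there were 30 peaks on the minus strand, 8.15 to 35.5 kb away. Of these, 19 lay in the next gene, Fbxl18, an F-box protein gene of 24.9 kb annotated on the minus strand, and 11 past its 3′ end. This neighbour was chosen after its values were seen. None of the 8 other genes had more than 8 same-strand peaks in that flank; Vasp had 8, the nearest 29.2 kb away.

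**Figure D4:**
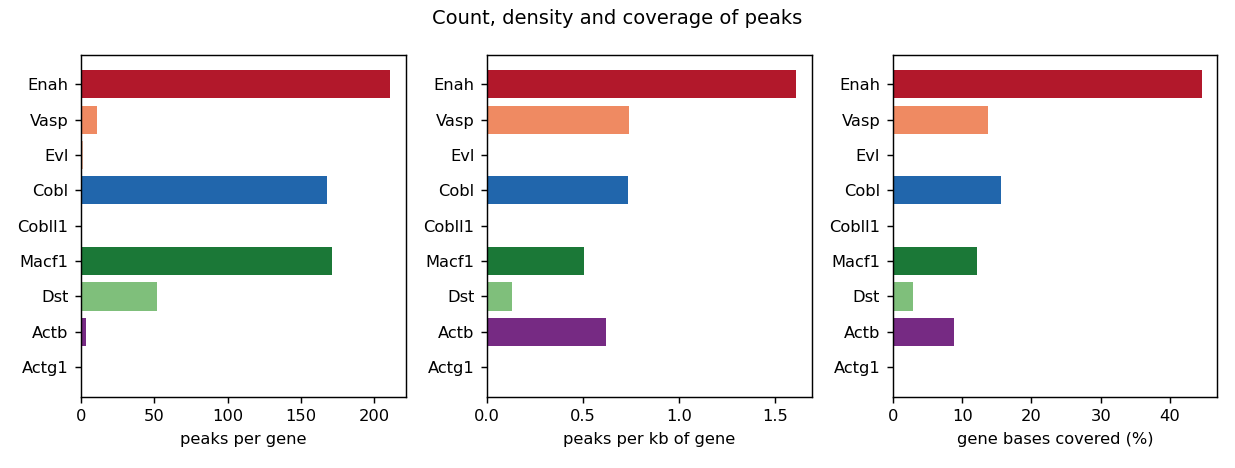
Peaks per gene, peaks per kb of gene and percent of gene bases covered for the 9 genes, as bars from 0. Enah is highest in all 3, and the order of the others changes between count and density, with Vasp and Actb close to Cobl per kb.

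In peaks per kb the order was Enah (1.61), Vasp (0.737), Cobl (0.736), Actb (0.617), Macf1 (0.506), Dst (0.130) and Evl (0.00747), with Cobll1 and Actg1 at 0. With peaks within 50 bases merged, Enah (1.24) still led, and Cobl and Actb came before Vasp at 0.617, 0.617 and 0.603. With peaks counted as deposited, Enah alone exceeded both Vasp and Actb per kb. Enah, Cobl and Macf1 each held more peaks than any other member, but per kb the short genes Vasp and Actb lay among them. All 3 exceeded Dst, Evl, Cobll1 and Actg1 per kb. As a set these 3 genes had 0.788 peaks per kb and the other 6 members 0.0946, with the genes picked on known counts. Over the 743 protein-coding genes of 100 kb and over with a peak, the median was 0.0248 per kb (quartiles 0.00831 and 0.103).

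The strand of every peak in the 6 members that have both a peak and an annotated strand was the annotated one. Over protein-coding genes with a strand in the table, 99.0% (98.9 to 99.1%) of 43475 peaks in a single gene were so. The 53 plus-strand peaks came from Dst and Evl and the 564 minus-strand peaks from the other 5 genes.

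Other genes of the actin machinery were taken from lists by role, written with earlier results of these data known. Apart from the members, 48 of 117 genes held a peak (41.0%), against 22.8% of all protein-coding genes, and of the 36 of 100 kb and over 14 did (38.9%), against 30.6%. The median was 0 peaks in the lists and 0 over all protein-coding genes. None of the 117 reached 100 peaks. Of all protein-coding genes 0.192% did, so that none is the usual outcome for a list of this size. In the lists 2 genes reached 50: Actr2 with 61 and Wasf2 with 56. The share of all protein-coding genes with at least 50 peaks is not given here. It was 2.76% for those of 100 kb and over, but Actr2 (50.6 kb) and Wasf2 (69.2 kb) are shorter.

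The counts by list that follow stand beside 22.8% of all protein-coding genes with a peak, and 30.6% of those of 100 kb and over. The lists are short, and none was tested against these shares. Among the nucleating complexes, the Arp2/3 complex, which starts branched filaments, had peaks in 7 of 9 genes. Actr2, its Arp2 subunit, had 61 peaks in 50.6 kb or 1.20 per kb, Arpc2 had 18 and Actr3 had 4. The WASP and WAVE genes, which switch this complex on, had peaks in 6 of 10: Wasf2 56, Brk1 12 and Nckap1 8. The formins, which nucleate and elongate straight filaments, had peaks in 4 of 13, near these shares, with few each: Diaph1 7, Diaph3 3 and Fhod3 2. Of the WH2 nucleators other than Cobl and Cobll1, Spire2 had 1 peak and the remaining 6 none.

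Crosslinkers had peaks in 6 of 11 genes. The bundling protein gene Fscn1 had 20 peaks in 12.8 kb, or 1.56 per kb, close to Enah, and the α-actinin genes Actn4 and Actn1 had 39 and 9. Of the 39 in Actn4, 27 lay in no other gene. Of 4 tropomyosin genes, whose products wrap filaments, Tpm3 held 22 and the other 3 none. Capping and severing factors had peaks in 5 of 12, led by Capza1 with 10, Dstn with 7 and Capzb and Twf2 with 2 each.

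Linkers outside the spectraplakins had lower counts than Macf1, which follows from the choice of Macf1 for its known high count. Spectrins and membrane linkers had peaks in 7 of 12: Sptbn1 9, Sptan1 8 and Utrn 7. The plakin Plec had 1 and Dsp, Ppl, Evpl and Eppk1 had none. Adhesion linkers had peaks in 2 of 8, near the share of all protein-coding genes (22.8%): the α-catenin gene Ctnna1 with 31 and Pxn with 5. Microtubule-binding genes had peaks in 4 of 10: Map4 39, Clasp2 10 and Clasp1 8. Proteins that bind Ena/VASP or act beside it had peaks in 4 of 9 genes, with 7 in Abi1, 5 in Robo1 and 4 each in Abi2 and the profilin gene Pfn1. Pfn1 is short, and its 4 peaks made 0.807 per kb, against 0.0699 in Abi1. Only 2 of the 4 peaks in Pfn1 and 4 of the 7 in Abi1 lay in no other gene. No actin gene other than Actb held a peak, which includes the muscle actins.

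**Figure D5:**
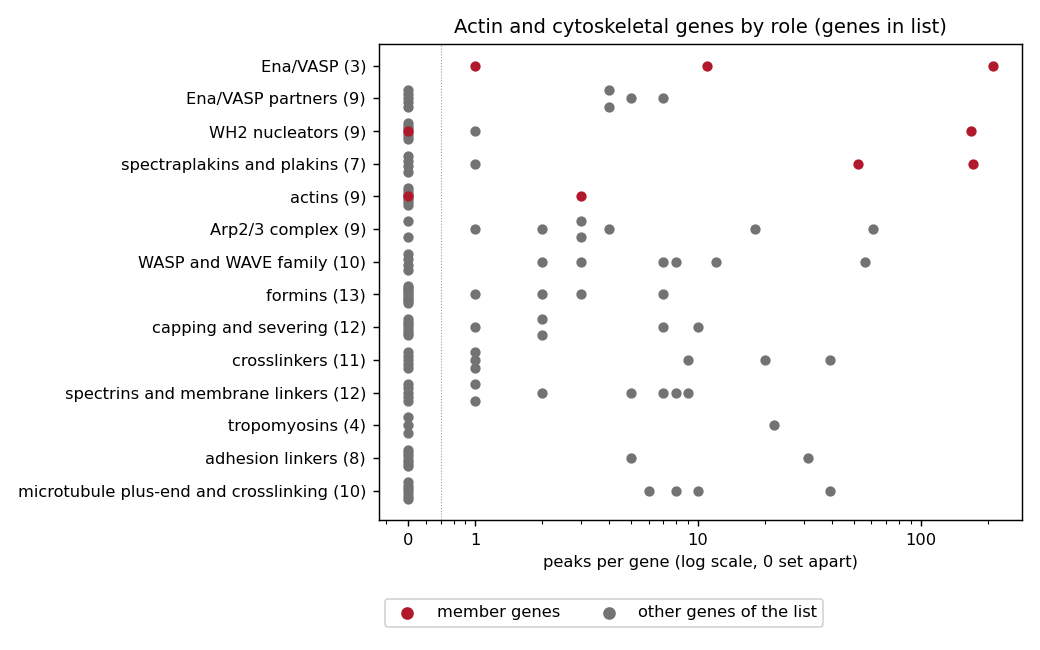
Peaks per gene (log scale, 0 set apart) for each list of actin and cytoskeletal genes, with the 9 genes in red and other genes in grey and list sizes in parentheses. Enah, Macf1 and Cobl, picked with their counts known, lie above every grey point, of which the highest is Actr2 with 61.

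Of these 117 genes 90 have an annotated strand, and 5 of their 391 peaks lay off it: 2 each in Arpc1b and Dmd and 1 in Map4. The other 71 peaks lay in 12 genes with no strand in the table, of which Pxn (3 plus, 2 minus) and Clasp1 (7 plus, 1 minus) held peaks on both strands. Markers of cell types were also counted, where 22.8% of all protein-coding genes held a peak. All 7 ES cell markers held peaks (Pou5f1 12, Nanog 13), though the 6 in Sox2 all lay also in another gene. Peaks were held by 0 of 6 fibroblast and 0 of 5 muscle markers, and of 3 neuronal markers Tubb3 held 7. Acta1 and Actc1 are in both the muscle and the actin lists. As most genes held no peak, lists this short without peaks cannot check the cell type.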

How the data were processed

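FLASH libraries were made from WT26 ES cells with an antibody against DHX9 (2 samples) or with IgG (2 samples). The authors deposited 1 list of peak regions for the 4 samples, called with PEAKachu per the file's source column; neither version nor settings were given there. The submitters' processing notes name Bowtie2 2.2.6 and the builds hg19 and mm10, and mm10 was taken for this list. The score field is empty for all 59563 peaks, so depth is unknown and no test between samples was possible.

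Peaks were assigned by midpoint, on either strand, to gene bodies of RefSeq assembly GRCm38.p6, the assembly of mm10, with Python 3.11.15 and pandas 2.3.3. Gene strand and start sites came from the RefSeq promoter table, which lists 8 of the 9 members. Exons were not used here, so exonic and intronic peaks were not told apart. Position was read from the 5′ end of the gene body. Covered bases are the union of peaks. Intervals on shares are 95% Wilson intervals. Counting by gene and strand, covered bases and merging were tested on simulated peaks in genes laid out without overlap. Overlapping genes, runs, start windows and intervals were not part of that test. Members, lists and tests were chosen with earlier results of these data known. The genes named are the 9 members, in each list the 3 genes, or fewer, that held most peaks, and genes inside members; Fbxl18, Arpc1b, Dmd, Pfn1 and Twf2 (tied for the last place of their lists), genes named as without a peak and the marker genes stand outside this rule. Alternatives were any overlap, merging within 50 bases, a minimum width at the median of the list, the annotated strand, peaks in no other gene, the first 10% in place of 20% and at least 3 peaks.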

Additional observations from a re-analysis of the deposited data

How the results depend on the processing

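No paired analysis was possible because the list holds no values per sample. No replicate could be left out for the same reason. When peaks narrower than the median of the list were left out, the 9 genes held 365 peaks in place of 617, or 0.260 per kb in place of 0.439; Evl and Actb then held none. In this setting Macf1 had 82.5% of its peaks in the first 20% of the gene, and with peaks merged 60.9%, against 69.6%. Over the 5 members with at least 10 peaks, the first 20% held 35.9% of peaks and the first 10% held 15.5%. Of 34 recomputed counts for the 7 genes with a peak, 28 stayed within 1.5 times, and the 6 that did not came from the limit on width. Under it only the Enah count (144) stayed so. As the limit is the median of the list, a gene with peaks of usual width must lose too many to stay within 1.5 times. The Enah count restates its wider peaks, of which 68.2% reached that median. Of 15 recomputed shares for single genes in the first part of the gene, 8 stayed within the interval of the share in the first 20%. These 15 include the shares in the first 10%, a shorter stretch that cannot hold more peaks. A fall there follows from the setting and does not measure stability. With at least 3 peaks asked for in place of 1, fewer genes of the lists counted, 32 of 117 (27.4%) in place of 48, where 14.8% of all protein-coding genes reached 3 peaks. Depth, multiple mapping and the level of RNA per gene could not be examined with this list.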
